A study of Mus musculus with 4 samples.

Results

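The genes of the mitochondrial ribosomal proteins were taken as the protein-coding genes of the GENCODE M21 annotation (mm10) whose symbols begin with Mrpl or Mrps followed by a digit. This gave 78 of 21951 protein-coding genes, on 17 chromosomes. Mouse kidneys at E13.5 had been used for chromatin immunoprecipitation and sequencing (ChIP-seq) of Eya1. Eya1 is a transcriptional coactivator and phosphatase that reaches DNA through partner proteins and is needed to keep nephron progenitor cells. Both Eya1 ChIP replicates came from embryos with an HA-FLAG tag knocked in at Eya1, with 80 kidneys in each assay and precipitation through the FLAG tag. The series has 4 samples, and the input and IgG controls were not analysed here. Whole kidneys were used, so a peak cannot be assigned to a cell type.

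Mitochondria translate the few messenger RNAs of their own genome on a dedicated ribosome. All proteins of this ribosome are encoded in the nucleus, made in the cytosol and imported, so their promoters are ordinary nuclear promoters, most of them rich in CpG dinucleotides. The large subunit (Mrpl genes) holds the peptidyl transferase centre and the small subunit (Mrps genes) decodes the messenger RNA. Many of the proteins descend from bacterial ribosomal proteins and others were added during the evolution of mitochondria. Many of these genes are known to start head to head with a neighbour on the opposite strand, and such a pair is called divergent. Of the members, 51 encode large-subunit proteins, including Mrps18a and Mrps30 despite their symbols, and 26 encode small-subunit proteins. Mrps36 is now regarded as a component of the 2-oxoglutarate dehydrogenase complex rather than of the ribosome.

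Sequences are shown first, to let the promoter types be compared. They were read from the mm10 genome in the direction of the member's transcription. Capitals mark a match to one of the 8 short motifs searched below. Mrpl49 and Mrpl32 are divergent genes with peaks in both replicates, and the whole stretch between the member's transcription start site (TSS) and the partner's is given (chr19:6057786-6057843 and chr13:14613166-14613239, both minus strand). Mrps2 (chr2:28467916-28468065, plus strand) and Mrpl58 (chr11:115403602-115403751, plus strand) had peaks in both replicates and no divergent partner, and the 150 bases before the TSS are given. Mrpl13 (chr15:55557749-55557898, minus strand) had no peak and serves as the contrast.
Mrpl49, between its TSS and that of Fau: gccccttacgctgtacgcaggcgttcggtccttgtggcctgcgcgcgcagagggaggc
Mrpl32, between its TSS and that of Psma2: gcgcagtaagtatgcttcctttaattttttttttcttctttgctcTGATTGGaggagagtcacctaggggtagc
Mrps2, 150 bases before the TSS: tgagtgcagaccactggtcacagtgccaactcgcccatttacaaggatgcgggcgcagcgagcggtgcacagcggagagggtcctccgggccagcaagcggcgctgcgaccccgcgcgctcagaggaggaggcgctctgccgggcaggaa
Mrpl58, 150 bases before the TSS: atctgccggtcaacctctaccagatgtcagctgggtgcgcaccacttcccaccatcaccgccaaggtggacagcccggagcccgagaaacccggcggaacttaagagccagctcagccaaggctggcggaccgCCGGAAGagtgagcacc
Mrpl13, 150 bases before the TSS: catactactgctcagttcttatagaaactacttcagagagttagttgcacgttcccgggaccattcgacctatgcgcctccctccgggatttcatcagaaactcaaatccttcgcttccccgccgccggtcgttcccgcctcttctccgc
The Mrpl49 and Mrps2 stretches lay wholly inside replicate 1 peaks, whereas the Mrpl32 stretch met its replicate 1 peak only at its first bases. CpG dinucleotides numbered 7 in the 58 bases at Mrpl49 and 1 in the 74 bases at Mrpl32. They numbered 15 at Mrps2, 10 at Mrpl58 and 12 at Mrpl13. The unoccupied Mrpl13 stretch had more than the occupied Mrpl58 stretch. However, Mrpl13 was picked for a high CpG content among members with no peak, so its count does not describe unoccupied members in general.

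The first question was how many of the members carried an Eya1 peak at a promoter. A gene was counted when a peak interval lay within 1 kb of any of its annotated TSSs, and a peak was called shared when a replicate 1 and a replicate 2 peak that both met this rule overlapped by at least 1 bp. A replicate 1 peak lay at 26 of 78 members (33.3%, exact 95% confidence interval 23.1 to 44.9), against 20.2% of all protein-coding genes. A replicate 2 peak lay at 15 members (19.2%, 11.2 to 29.7), against 14.7% of all genes. A shared peak lay at 11 members (14.1%, 7.26 to 23.8), against 11.3%. A peak of either list lay at 30 members (38.5%, 27.7 to 50.2), against 23.5%. The replicate 1 and either-list intervals lay above the share of all genes, and the other intervals included it. The intervals are Clopper-Pearson intervals and cover counting error over genes only, since the lists hold no read counts and the depth behind a peak is unknown.

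The share in all genes is a poor yardstick for these promoters, because CpG-poor promoters rarely carried a peak. CpG content was measured as the CpG observed/expected ratio in the 1000 bp around the reference TSS. Its median was 0.727 for the members (0.504 to 1.05) and 0.569 for the other protein-coding genes. No member fell in deciles 1 to 4 of this ratio, 2 fell in decile 5, and 18, 22, 14, 15 and 7 fell in deciles 6 to 10. Among other genes the share with a peak of either list rose from 0.866% in decile 1 to 62.8% in decile 10. When the other genes were weighted to the members' deciles, 32.6% had a replicate 1 peak, 22.7% a replicate 2 peak, 17.5% a shared peak and 37.6% a peak of either list. Each of these 4 values lay inside the members' interval. In replicate 1 and in either list the members' shares were close to those of promoters of like CpG ratio. Their shares in replicate 2 and shared peaks were the lower ones, by less than counting error. Intervals this wide do not show that the shares are equal.

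The measure used for matching mattered. Matched on plain G+C content instead of the CpG ratio, other promoters gave 20.8% for replicate 1, 14.5% for replicate 2, 11.01% for shared peaks and 24.2% for either list, close to the shares of all genes. The median G+C content of the members was 55.8% and that of other genes 55.3%, so the members stood apart from other genes in the CpG ratio and hardly in G+C content. The other 7 ways of matching that were tried kept the either-list share between 31.5% and 39.5%.

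Within the members, occupancy by decile of CpG ratio was 4 of 18 in decile 6, 9 of 22 in decile 7, 6 of 14 in decile 8, 5 of 15 in decile 9 and 6 of 7 in decile 10. Other genes of these deciles had a peak of either list in 22.5%, 33.0%, 41.6%, 50.8% and 62.8% of cases. In decile 9 the members were below the other genes, at 33.3%, and in deciles 7 and 10 above them, on few genes each. Occupied members of the shared class had a median ratio of 0.751 and members with no peak 0.700, and the ranges overlapped (0.657 to 0.947 and 0.504 to 0.961).

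**Figure D1:**
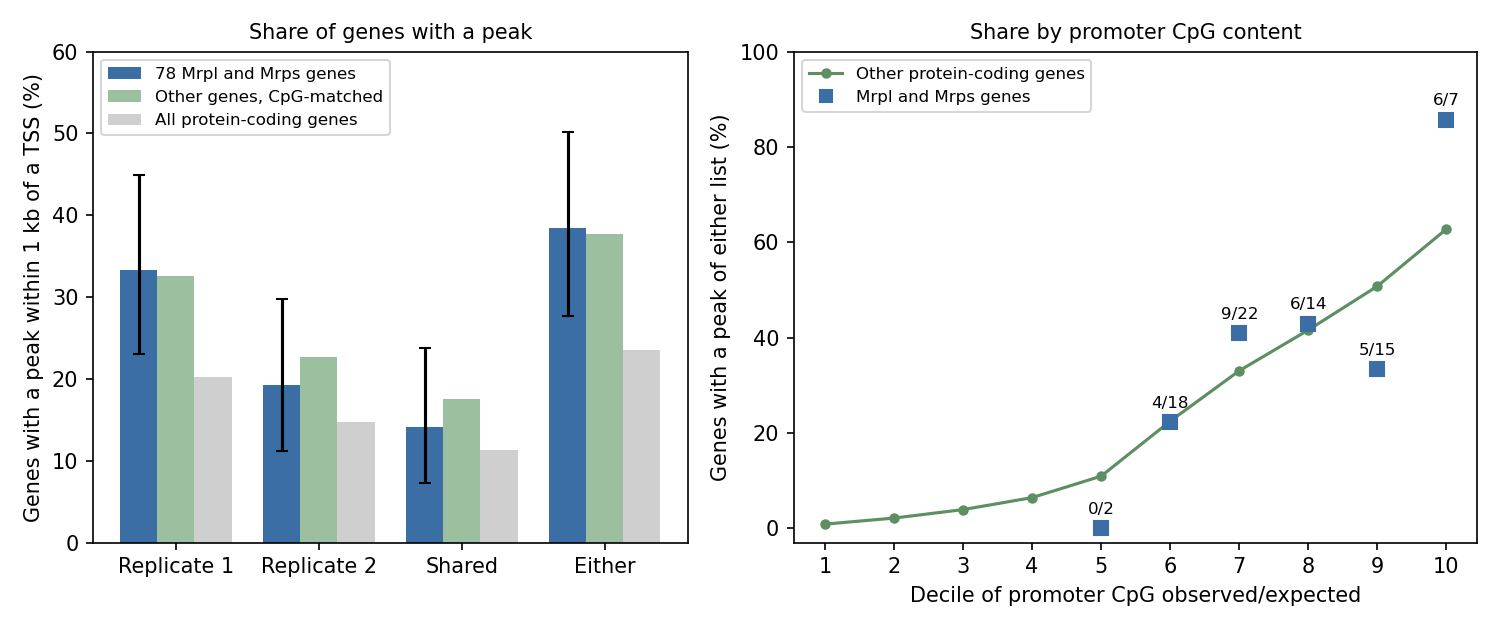
Left, the share of genes (%) with an Eya1 peak within 1 kb of a TSS in the 78 Mrpl and Mrps genes (bars start at 0, error bars are exact 95% binomial intervals), in other genes weighted to the same CpG deciles, and in all protein-coding genes. Right, the share with a peak of either list in each decile of the promoter CpG ratio, with the number of occupied members over all members printed at each square; the squares scatter around the line of other genes, at 9 of 22 in decile 7 and 5 of 15 in decile 9.

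Of the 30 occupied members, 11 belonged to the shared class. These were Mrpl3, Mrpl14, Mrpl17, Mrpl18, Mrpl32, Mrpl48, Mrpl49, Mrpl58, Mrps2, Mrps18b and Mrps35. A further 15 had a replicate 1 peak only, namely Mrpl44, Mrpl51, Mrpl52, Mrpl53, Mrpl57, Mrps6, Mrps7, Mrps15, Mrps16, Mrps17, Mrps24, Mrps26, Mrps28, Mrps30 and Mrps36. Only 4 had a replicate 2 peak alone, and these were Mrpl12, Mrpl36, Mrpl40 and Mrps5. No member had peaks of both lists that failed to overlap, and no peak was shared between members.

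The other 48 members had no peak in either list. They were Mrpl1, Mrpl2, Mrpl4, Mrpl9, Mrpl10, Mrpl11, Mrpl13, Mrpl15, Mrpl16, Mrpl19, Mrpl20, Mrpl21, Mrpl22, Mrpl23, Mrpl24, Mrpl27, Mrpl28, Mrpl30, Mrpl33, Mrpl34, Mrpl35, Mrpl37, Mrpl38, Mrpl39, Mrpl41, Mrpl42, Mrpl43, Mrpl45, Mrpl46, Mrpl47, Mrpl50, Mrpl54 and Mrpl55 of the large subunit and Mrps9, Mrps10, Mrps11, Mrps12, Mrps14, Mrps18a, Mrps18c, Mrps21, Mrps22, Mrps23, Mrps25, Mrps27, Mrps31, Mrps33 and Mrps34 with Mrps symbols. The list cutoff is not known, so a missing peak is not a measurement of no binding. Widening the distance to 3 kb added Mrpl2, which then had a shared peak, and Mrpl22 and Mrpl34 with replicate 1 peaks. At 3 kb a peak of either list lay at 42.3% of members, against 24.4% of all protein-coding genes. A shared peak then lay at 15.4% of members, against 11.8%.

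Shared peaks made up 42.3% of the 26 members with a replicate 1 peak and 73.3% of the 15 with a replicate 2 peak. Among other protein-coding genes the corresponding values were 56.0% and 76.9%. At the members, as elsewhere, most replicate 2 calls were thus repeated in replicate 1, and replicate 1 held more calls that replicate 2 lacked.

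By subunit, a peak of either list lay at 17 of 51 large-subunit genes (33.3%) and at 12 of 26 small-subunit genes (46.2%). The order turned in replicate 2, with 11 of 51 large-subunit (21.6%) and 4 of 26 small-subunit genes (15.4%). For replicate 1 the counts were 14 of 51 (27.5%) and 11 of 26 (42.3%), and for shared peaks 8 (15.7%) and 3 (11.5%). Among all protein-coding genes the shares were 23.5% for either list, 20.2% for replicate 1, 14.7% for replicate 2 and 11.3% for shared peaks. The differences between subunits rest on few genes and were not tested. The small-subunit genes with a replicate 1 peak included Mrps16 and Mrps17, core proteins of bacterial descent, and Mrps7 and Mrps15, which contact the small-subunit ribosomal RNA. In the bacterial-descent class 17 of 48 genes had a peak (35.4%), and in the class without a bacterial homologue 12 of 29 (41.4%). The shared class was spread over both, with 7 genes of bacterial descent and 4 without a bacterial homologue.

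Peak width separated the replicates more than it separated the genes. At the members, replicate 1 peaks had a median width of 904 bp (27 peaks, 404 to 2024 bp) and replicate 2 peaks one of 178 bp (17 peaks, 117 to 423 bp). Peaks of the same lists within 1 kb of any protein-coding TSS had medians of 1100 bp (3989 peaks, quartiles 808 to 1464) and 199 bp (3473 peaks, quartiles 147 to 306). With the nearest peak of each gene and the other genes weighted to the members' CpG deciles, the medians were 892 bp at members and 1105 bp at others in replicate 1, and 171 bp and 198 bp in replicate 2. The peaks at members were thus the narrower in both lists, though both replicate 2 medians fell inside the exact 95% interval of the members' median (142 to 321 bp). In replicate 1 that interval was 710 to 1091 bp, which lay just below 1100 bp. Such an interval covers the spread over peaks of a single list, and the difference in width was not tested. Among members, shared replicate 1 peaks had a median of 962.5 bp and unshared ones 874 bp, and for replicate 2 the medians were 205 and 134 bp.

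**Figure D2:**
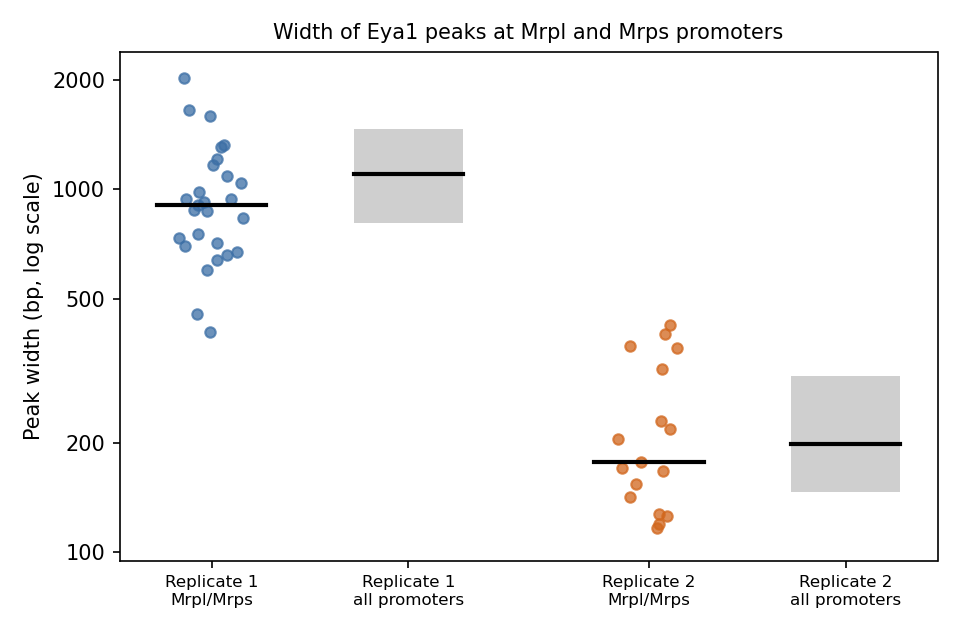
Width of each Eya1 peak (bp, log scale) within 1 kb of an Mrpl or Mrps TSS, as points with a line at the median (904 bp in replicate 1, 178 bp in replicate 2), beside all peaks of the list within 1 kb of a protein-coding TSS (grey box, quartiles; line, median). The point clouds of the replicates barely meet, with replicate 1 from 404 bp and replicate 2 up to 423 bp.

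Where both replicates had called the same place, the replicate 2 peak was nested in the replicate 1 peak. This held for 13 of 13 overlapping pairs, and the replicate 1 peak was wider by a median of 4.94 times (1.91 to 11.03). The median widths of the whole lists differed 5.69 times. Nesting was not counted at other genes, so it is not shown to be particular to the members. In the 11 shared members, midpoints of the nearest peaks of the 2 lists were a median of 116 bp apart (up to 564.5 bp). When at least 50% of each peak had to be covered by the other, Mrpl32 and Mrpl58 were the only shared members left. The shared calls at the other 9 thus rest on a narrow interval within a broad one. The fall was not particular to the members: 2.56% of them and 0.820% of all protein-coding genes had a shared peak under this rule.

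The widest shared replicate 1 peak nearest a reference TSS was that of Mrpl14, a protein of the intersubunit face of the large subunit. It spanned 2024 bp (chr17:45685006-45687029) and held 2 separate replicate 2 peaks of 205 and 321 bp, which lay on either side of the Mrpl14 TSS. Next came Mrps2, a small-subunit protein of bacterial descent, with a replicate 1 peak of 1324 bp (chr2:28467903-28469226) and a replicate 2 peak of 120 bp (chr2:28468157-28468276) in a coding exon. Mrps18b had peaks of 1313 bp (chr17:35916882-35918194) and 423 bp (chr17:35917009-35917431), neither of which touched its TSS. Peaks at Mrpl49 measured 1091 and 168 bp, and those at Mrps35, a mitochondrial addition to the small subunit, 984 and 230 bp.

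The narrowest shared replicate 1 peak was the TSS peak of Mrpl48, a large-subunit protein without a bacterial homologue, at 404 bp (chr7:100582729-100583132), with a replicate 2 peak of 154 bp. Mrpl48 had a second occupied promoter. At another of its 10 annotated TSSs, upstream of the reference TSS by 24001 bp to the near edge of the peak, lay a replicate 1 peak of 1658 bp (chr7:100607103-100608760) and a replicate 2 peak of 401 bp (chr7:100608225-100608625). Annotated TSSs of Rab6a, a Golgi trafficking gene on the opposite strand, also lay inside that broad peak, so it cannot be given to Mrpl48 alone. Mrpl3, which lies near the peptidyl transferase centre, had peaks of 638 and 128 bp. Mrpl32, a large-subunit protein that is cut to its mature form by a mitochondrial protease before assembly, had peaks of 700 and 366 bp.

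The 4 members with a replicate 2 peak alone had peaks of 117 to 219 bp, of which 3 were narrower than the median of 178 bp at members and that of Mrps5 was wider. Mrpl12, the stalk protein that contacts translation factors, had a peak of 126 bp whose midpoint lay 155.5 bp downstream of the TSS (chr11:120484706-120484831, in a coding exon). Mrpl36, a small large-subunit protein of bacterial descent, had one of 142 bp at 132.5 bp downstream (chr13:73331050-73331191). The Mrpl40 peak had the minimum width of the list, 117 bp, and its midpoint lay upstream of the Mrpl40 TSS at -665 bp, in an exon of the divergent neighbour Hira, a histone chaperone gene (chr16:18877469-18877585). The Mrps5 peak of 219 bp (chr2:127587503-127587721) lay 390 bp downstream, in an intron. It was the only peak at a member outside annotated exons, and its whole sequence is given here, with 21 CpG dinucleotides and none of the 8 motifs.
Mrps5, replicate 2 peak, plus strand: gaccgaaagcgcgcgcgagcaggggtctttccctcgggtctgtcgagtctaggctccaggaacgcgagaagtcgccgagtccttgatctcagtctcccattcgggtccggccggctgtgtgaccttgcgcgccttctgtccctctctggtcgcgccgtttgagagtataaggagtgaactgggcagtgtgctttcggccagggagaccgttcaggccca

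**Figure D3:**
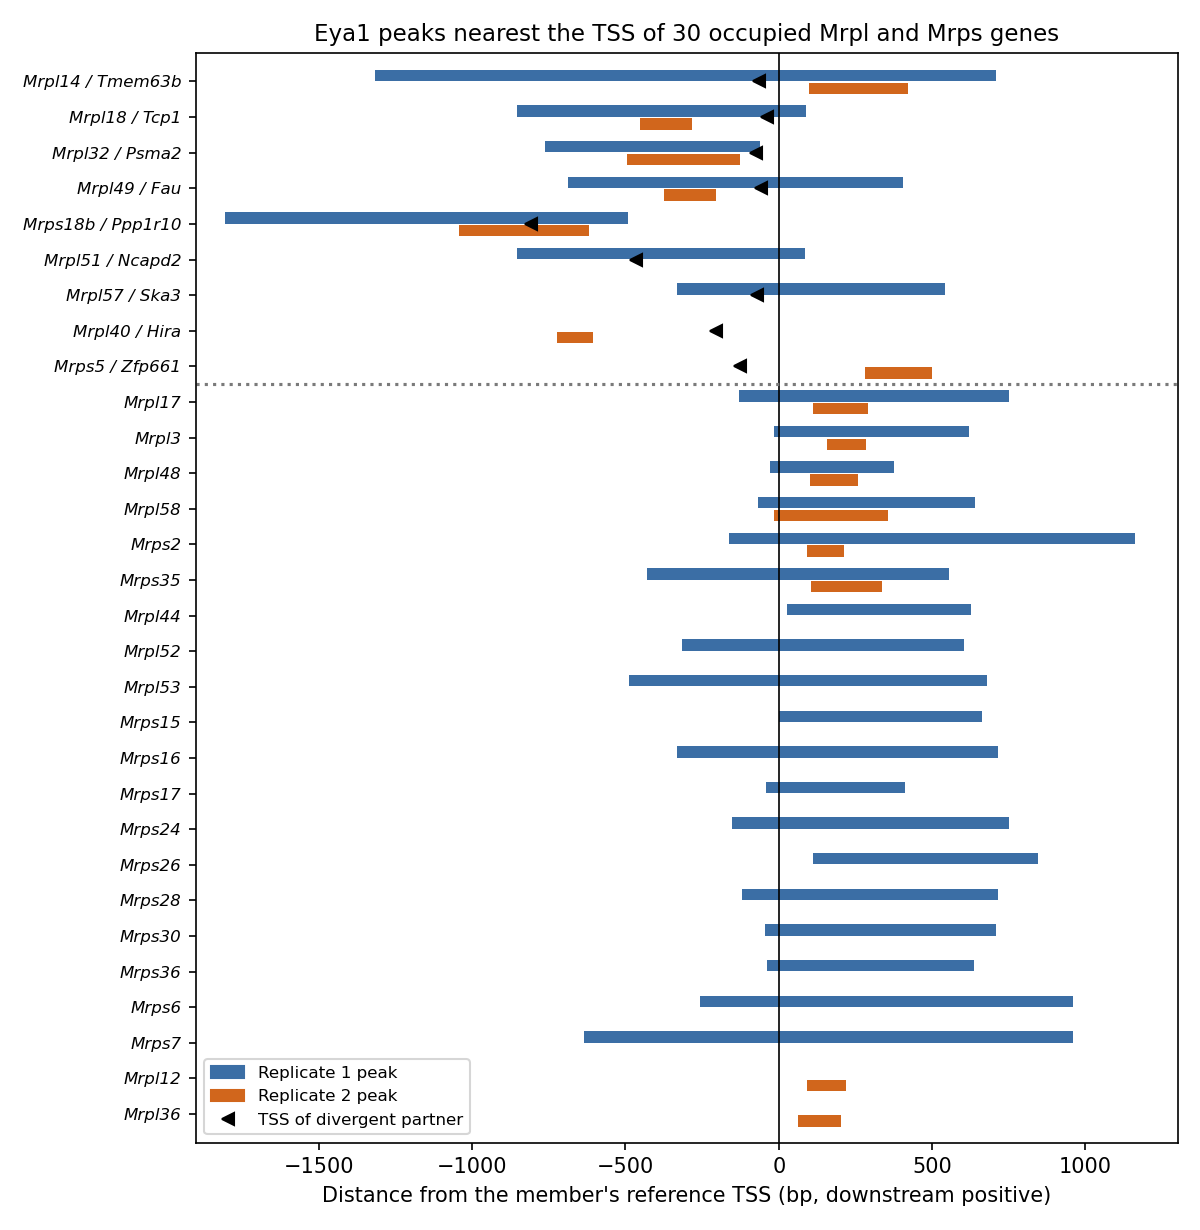
Extent of the Eya1 peak nearest the reference TSS of each of the 30 occupied Mrpl and Mrps genes, in bp from that TSS (downstream positive; blue, replicate 1; orange, replicate 2; arrowhead, TSS of a divergent partner). Below the dotted line, where there is no partner, the midpoints lie downstream of this TSS while 16 of the 19 blue bars cover it, and every orange bar beside a blue one falls within its span.

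The next question was on which side of the TSS the peaks lay. The offset was taken from the member's reference TSS to the midpoint of the nearest peak, with downstream positive. In replicate 1 the median offset was 187.5 bp (-1149 to 498.5 bp, 26 members) and 20 of 26 midpoints were downstream. In replicate 2 it was 155.5 bp (-831 to 390 bp, 15 members) and 10 of 15 were downstream. The exact 95% interval of the median was 93.5 to 301.5 bp in replicate 1. In replicate 2 it was -311.5 to 219.5 bp, which spans the TSS. Other genes weighted to the same CpG deciles had median offsets of 280 and 231 bp. Measured from the nearest annotated TSS of the same member instead, the replicate 1 median was 17.75 bp and the replicate 2 median 94.5 bp, so the size of the downstream shift in replicate 1 depended on which start was used.

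The broad replicate 1 peaks covered the reference TSS in 21 of 26 members (80.8%, 74.9% of other genes with a peak), whereas replicate 2 peaks covered it in 1 of 15 (6.67%, 9.32% of others). The exception was Mrpl58, a ribosome-bound peptidyl-tRNA hydrolase that frees stalled peptides, whose 370-bp replicate 2 peak (chr11:115403737-115404106) reached from 15 bp before to 354 bp after the TSS. Counting every annotated TSS, replicate 2 peaks covered one at 3 members, Mrpl17, Mrpl48 and Mrpl58 (3.85%, against 4.94% of all protein-coding genes). Most peaks at members met coding sequence, counting exons of any gene, so the exon can be a neighbour's. The replicate 2 peaks at Mrpl18 and Mrpl32, for example, met coding sequence while lying wholly upstream of the member. The share among all promoter peaks was not counted. In replicate 1, 23 of 27 peaks overlapped a coding exon and 4 met untranslated exons only, and in replicate 2 the numbers were 11 and 5 of 17.

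Members without a divergent partner had midpoints downstream of the reference TSS. All 19 of them with a replicate 1 peak had the midpoint downstream, from 62.5 to 498.5 bp with a median of 298.5 bp. All 8 with a replicate 2 peak had it downstream too, from 132.5 to 219.5 bp with a median of 174.5 bp. Among other genes without a partner, 84.4% of replicate 1 and 83.9% of replicate 2 midpoints lay downstream. The direction depended on the start used. From the nearest annotated TSS of the same member, 15 of the 19 replicate 1 midpoints and 7 of the 8 replicate 2 midpoints were downstream. Mrps17 (-10 bp), Mrps6 (-193.5 bp), Mrps36 (-228.5 bp) and Mrps30 (-240.5 bp) then turned upstream in replicate 1, and Mrpl48 (-124 bp), through its distant promoter, in replicate 2. From the reference TSS, the 2 largest downstream offsets were those of Mrps2 (498.5 bp) and Mrps26 (477 bp), whose replicate 1 peaks reached 1160 and 843 bp into the gene.

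Members with a partner differed in position. Of 7 with a replicate 1 peak, 1 had its midpoint downstream of the member's TSS, and the median was -383 bp. Of 7 with a replicate 2 peak, 2 had it downstream, and the median was -311.5 bp. Among other divergent genes 45.4% and 50.9% of midpoints lay downstream. How these midpoints lay relative to the partner's TSS is given below.

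**Figure D4:**
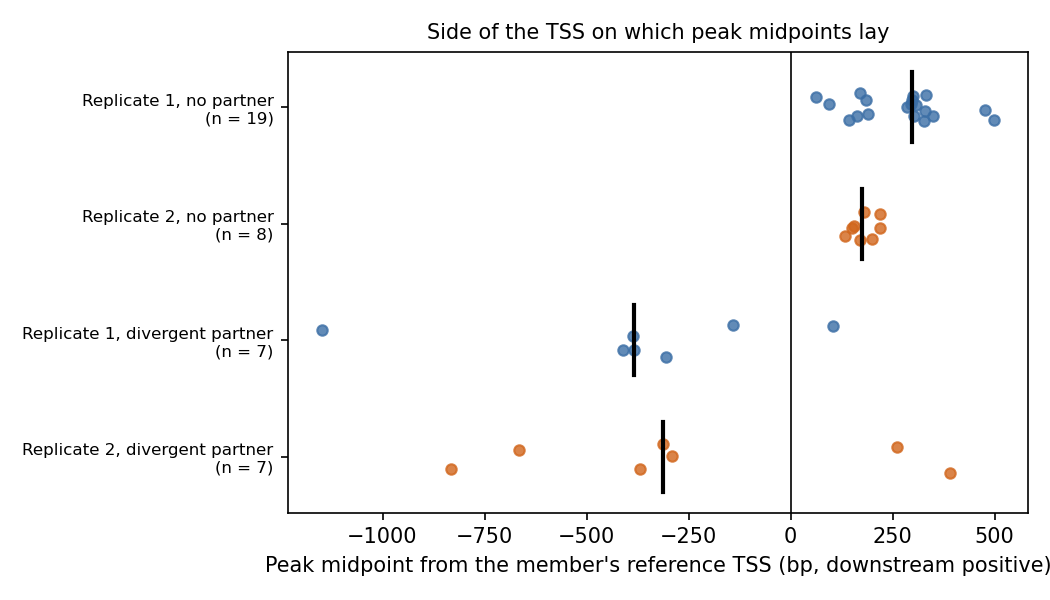
Distance (bp, downstream positive) from the member's reference TSS to the midpoint of its nearest Eya1 peak, by replicate and by presence of a divergent partner (points, members; bars, medians; vertical scatter within a row is arbitrary). Without a partner all points lie to the right of 0, and with a partner the medians are -383 bp in replicate 1 and -311.5 bp in replicate 2.

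Divergent partners were common among the members. A protein-coding neighbour on the opposite strand had its reference TSS within 1 kb upstream in 21 of 78 members (26.9%), against 11.9% of other genes weighted to the same CpG deciles. The TSSs of a pair were a median of 81 bp apart (29 to 935 bp), against 168 bp in the 1507 other divergent genes. A peak of either list lay at 9 of 21 members with a partner (42.9%) and at 21 of 57 without one (36.8%). The replicate 1 shares were both 33.3% (7 of 21 and 19 of 57). For replicate 2 they were 33.3% with a partner (7 of 21) and 14.0% without (8 of 57), and for shared peaks 23.8% (5 of 21) and 10.5% (6 of 57). The replicate 2 and shared values were thus higher with a partner, a difference that was not tested and that rests on few genes. Among other genes the shares with a peak of either list were 46.1% and 21.8%, those with a replicate 2 peak 28.1% and 13.7%, and those with a shared peak 22.2% and 10.5%, but those without a partner also had the lower median CpG ratio (0.531 against 0.775). In the members the medians were 0.722 and 0.766. Standardised for both CpG decile and partner, other genes gave 38.7% for a peak of either list, next to 38.5% in the members. For replicate 1 the values were 33.7% and 33.3%, for replicate 2 23.0% and 19.2%, and for shared peaks 17.9% and 14.1%.

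Among the 9 occupied pairs, the partners were as follows. In the shared class Mrpl14 faced Tmem63b, an ion channel gene, at 63 bp. Mrpl18 faced Tcp1, a subunit of the cytosolic chaperonin, at 37 bp. Mrpl32 faced Psma2, a proteasome subunit, at 75 bp, and Mrpl49 faced Fau, which encodes a cytosolic ribosomal protein, at 59 bp. Mrps18b faced Ppp1r10, a nuclear regulator of a protein phosphatase, at 807 bp.

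Of the pairs with a peak of 1 list, Mrpl51 faced the condensin gene Ncapd2 at 464 bp and Mrpl57 faced the kinetochore gene Ska3 at 71 bp, both with a replicate 1 peak. Mrpl40 faced Hira at 204 bp and Mrps5 faced the zinc finger gene Zfp661 at 128 bp, both with a replicate 2 peak. Mrpl10, Mrpl30, Mrpl37, Mrpl41, Mrpl43, Mrpl46, Mrpl50, Mrps11, Mrps12, Mrps18c, Mrps27 and Mrps34 had a partner and no peak. Mrpl46 and Mrps11 are each other's partner, and Mrpl43 faced Twnk, the mitochondrial DNA helicase gene.

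In replicate 1, 5 of the 7 peaks at divergent members covered both TSSs, and 6 of the 7 midpoints were nearer the partner's TSS. In replicate 2 none of the 7 peaks covered both TSSs, and 5 of 7 midpoints were nearer the partner. These counts were not made for other divergent genes, so they do not set the members apart. At Mrpl18 the replicate 2 peak of 171 bp lay 331 bp into Tcp1, measured from the Tcp1 reference TSS to the midpoint. At Mrpl32 the replicate 2 midpoint lay 236.5 bp into Psma2, and at Mrpl49 it lay 230.5 bp into Fau. At Mrpl18 and Mrpl49 the broad and the narrow peak differed in what they touched. Both replicate 1 peaks covered both TSSs of the pair and neither replicate 2 peak covered one. At Mrpl49 the replicate 1 peak of 1091 bp (chr19:6057382-6058472) spanned both starts and the 58 bases printed above, and the 168-bp replicate 2 peak (chr19:6057991-6058158) lay within Fau. At Mrps18b the replicate 1 midpoint lay upstream at -1149 bp, the farthest of any member, and 342 bp into Ppp1r10.

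Because of this, members were also counted after giving each peak to the protein-coding gene with the nearest TSS alone, a rule added after the data were seen. Replicate 1 peaks then counted for 19 members (24.4%), replicate 2 peaks for 10 (12.8%), shared peaks for 6 (7.69%) and either list for 23 (29.5%). Under the same rule all protein-coding genes gave 17.7%, 13.1%, 9.62% and 20.99%, and other genes of like CpG ratio 28.4%, 20.2%, 14.8% and 33.6%. The shared members still counted were Mrpl3, Mrpl17, Mrpl48, Mrpl58, Mrps2 and Mrps35, which have no partner. Those no longer counted were Mrpl14, Mrpl18, Mrpl32, Mrpl49 and Mrps18b, which all have one. Mrpl44 and Mrps7 have no divergent partner by the rule used here, yet the nearest TSSs to their replicate 1 peaks were those of Wdfy1 and Gga3.

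The promoters of the members were searched for 8 motifs in the 250 bases before to 50 after the reference TSS, on both strands and without mismatches. The commonest, GGGCGGG (the SP family), was found in 33 members (42.3%), in 33.5% of all protein-coding promoters and in 51.9% of other promoters of like CpG ratio. CCGGAAG (the ETS family) was found in 29 members (37.2%), against 11.2% of all promoters and 18.2% at like CpG ratio. It occurred in 7 of 11 shared members, 5 of 19 members with a peak of 1 list and 17 of 48 without a peak. Among all genes with a shared peak, 16.4% had it. Mrpl17, Mrpl18 and Mrps18b were among the shared members with a match, and the Mrpl58 match is the one in capitals above.

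AAGATGGCG (YY1) was found in 8 members (10.3%), against 1.85% of all promoters and 3.12% at like CpG ratio. By class these were 0 of 11 shared members, 2 of 19 with a peak of 1 list and 6 of 48 without a peak, and among all genes with a shared peak 4.42% had it, so that 11 members are too few to read anything from the 0. GCGCATGCG (NRF1, a regulator of nuclear genes for mitochondrial proteins) was found in 5 members (6.41%, against 2.51% of all promoters and 3.70% at like CpG ratio). Mrpl17 and Mrpl32 were the shared members with an NRF1 match. CCAATCA (NFY) was found in 8 members (10.3%, between the 9.18% of all promoters and the 10.8% at like CpG ratio), and the capitals in the Mrpl32 stretch are its reverse complement. TGACGTCA (CREB) was found in 2 members (2.56%, against 2.50% of all and 3.57% at like CpG ratio), and ACTACAATT (ZNF143) and AGGCCTNG (ZFX) in 0 of 78, against 0.565% and 5.22% of all promoters and 0.778% and 6.07% at like CpG ratio. Matches to different motifs can overlap, as CCGGAAG and AAGATGGCG may share bases. A match is a property of the sequence and not a measurement of a factor, and most peak midpoints at members lay downstream of the window searched.

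Other genes of mitochondrial translation were counted in the same way. Of 47 listed genes, 13 had a replicate 1 peak, 9 a replicate 2 peak, 6 a shared peak and 16 a peak of either list. These shares were 27.7%, 19.1%, 12.8% and 34.0%, against 20.2%, 14.7%, 11.3% and 23.5% of all protein-coding genes. Genes outside both lists, weighted to the same CpG deciles, gave 31.1%, 21.8%, 16.7% and 35.9%, each above the share of the 47 genes. Of the 5 mitoribosomal protein genes with other symbols, Dap3, a GTP-binding protein of the small subunit, and Gadd45gip1 had shared peaks, Ptcd3 had a replicate 1 peak, and Aurkaip1 and Chchd1 had none. Of 10 translation factors 3 had a peak, none of them shared, and these were the recycling factor Mrrf, the release factor Mtrf1l and the elongation factor Guf1. Of 22 assembly factors and rRNA enzymes 6 had a peak, with shared peaks at the helicase Dhx30, at Malsu1 and at the rRNA methyltransferase Mrm3. Of 7 genes of mitochondrial transcription or messenger RNA 2 had a peak, Tfam, which packages and transcribes mitochondrial DNA, with a shared one and Slirp with a replicate 1 peak. Of 3 genes of insertion or activation, Oxa1l, which inserts new proteins into the inner membrane, and Rmnd1 had a replicate 1 peak and Taco1 had none.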

How the data were processed

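Eya1 ChIP-seq was performed on E13.5 mouse kidneys (4 samples, 2 of them Eya1 ChIP replicates with 1 peak list each). Per the study's methods, the authors aligned reads with Bowtie at default settings to mm10 and ran MACS against input or IgG with several P cutoffs. The authors then kept the peaks common to both controls, and their final set differs in size from either list used here. The submitters' processing notes name HISAT2 and mm10. The deposited lists (4277 and 4175 peaks) hold only chromosome, start and end, with no score, p-value or count, so cutoffs and depth are unknown. Broad calls in replicate 1 and narrow calls in replicate 2 affect widths, TSS coverage and overlap.

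Peaks were compared with every annotated TSS of GENCODE M21 (1-based coordinates); 0 peaks ran beyond a chromosome end. The reference TSS is 1 per gene. CpG matching weighted the share of non-member genes in each of 10 CpG-ratio bins to the members' bins. No test was made over the list: the members, the gene lists and the motifs were chosen with earlier results of these data known, and shares and medians are descriptions. The replicates are separate ChIP assays, and with 1 list each no error between replicates beyond their 2 values can be given.

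Values are given for the 5 widest and 3 narrowest shared replicate 1 peaks nearest a TSS, all members with a replicate 2 peak alone, the 3 farthest midpoints, and members with 2 peaks of 1 list. Mrpl44, Mrps7 and Rab6a, and the subset named by function or motif, were picked after their values had been seen. Sequences came from the GRCm38 genome by rule, passing over stretches with an annotated exon, and the Mrps5 peak was chosen after its values were seen. Python 3.11.15, numpy 2.4.6, scipy 1.17.1, pysam 0.24.0, matplotlib 3.10.9 and samtools 1.23.1 were used. The calculations were tested on simulated peaks and genes.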

Additional observations from a re-analysis of the deposited data

How the results depend on the processing

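Each of 13 results was recomputed under alternatives, which gave 79 values. Of these, 69 stayed within 1.5 times the reported count or share, or inside the 95% interval of the reported median. Counts, shares and widths cannot change sign, so only the median offsets could. These stayed positive, at 17.75 and 184 bp in replicate 1 and 94.5 and 150.5 bp in replicate 2. The replicate 2 interval (-311.5 to 219.5 bp) spans the TSS, so lying inside it does not settle the sign. When a peak had to cover an annotated TSS, members with a replicate 2 peak fell to 3 and members with a shared peak to 3. The replicate 2 peaks are narrow and most lie beside the TSS. Each count is 3.85% of members, against 4.94% of all protein-coding genes for replicate 2 and 4.08% for shared peaks. With 50% of both peaks covered, 2 members kept a shared peak (2.56%, against 0.820% of all protein-coding genes). With peaks given to the nearest TSS alone, added after the data were seen, 6 members did (7.69%, against 9.62% of all). Matching on G+C content gave shares of other genes of 20.8% for replicate 1, 14.5% for replicate 2, 11.01% for shared peaks and 24.2% for either list. The replicate 1 median offset from the nearest annotated TSS was 17.75 bp. Leaving out 1 replicate left 15 to 26 members with a peak; the 15 is without replicate 1. A shared peak needs both lists, so no replicate could be left out of it. Members with a divergent partner ranged from 19 to 27 under the other distance and gene-type rules. No paired analysis was possible because the results come from no test and each Eya1 replicate is 1 peak list. The depth behind the lists is unknown, so members without a peak may have been missed.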
